A study of Mus musculus with 30 samples.

Results

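The genes described are feedback inhibitors and target genes of the ERK cascade, the kinase relay from growth factor receptors to the nucleus. The set of 9 genes comprised Dusp6, Dusp4, Spry1, Spry2, Spry4, Spred1, Etv4, Etv5 and Phlda1, and its members were found by matching these symbols in the platform annotation of the array. Of 22690 probe sets on each array, 13 belonged to 8 of these genes, and Dusp4 had no probe set listed under its symbol. Of the 13, 8 probe sets of 6 genes were bright enough to be tested, and the other 5 are given by their levels.

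Brain-derived neurotrophic factor (BDNF) binds the receptor tyrosine kinase TrkB on neurons, which activates Ras, Raf, MEK and ERK in turn. Active ERK drives transcription of genes whose products restrain the same cascade, so their mRNA is widely used as a readout of it. Dusp6 and Dusp4 encode phosphatases that inactivate ERK, the Sprouty proteins Spry1, Spry2 and Spry4 act between receptor and Raf, and Spred1 brings the Ras inhibitor neurofibromin to the membrane. Etv4 and Etv5 are ETS transcription factors induced downstream of ERK, and Phlda1 encodes a pleckstrin-homology-like protein induced by growth factors. ERK activity itself was not measured on these arrays.

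The cells were primary cultures of mouse telencephalon taken at embryonic day 12.5 from Xbp1 -/- embryos (KO), which lack the unfolded protein response transcription factor XBP1, and from Xbp1 +/+ embryos (WT) of matings between heterozygotes. Dissociated tissue of 6 KO embryos was pooled, as was that of 4 WT embryos, and each pool was plated over 15 dishes in serum-free Neurobasal medium with B27 supplement, with 1 array hybridized per dish. The 6 groups of 5 dishes were KO without BDNF (basal), KO with BDNF for 24 h and KO with BDNF for 48 h, and WT basal, WT 24 h and WT 48 h, with BDNF at 100 ng/ml. Basal and 24 h dishes were lysed on day 4 in vitro and 48 h dishes on day 5, so BDNF and a further day in culture cannot be told apart at 48 h. Because the dishes of a genotype share 1 pool, p-values measure the spread between dishes, and genotype and pool cannot be told apart.

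Array medians were 81.9 to 138, and each signal was divided by the median of its array and converted to log2, so a level of 1 means a signal of double the array median. The spread over 5 arrays a group limits the precision. Xbp1 mRNA was not lower in KO dishes: probe set 1420011_s_at was higher in KO by 1.09 ± 0.10 (SE) log2 at basal (limma, adjusted p = 2.83e-10), by 1.05 at 24 h and by 0.85 at 48 h. Probe set 1437223_s_at was higher by 0.22 at basal (adjusted p = 0.00625), and the other 8 of 12 comparisons of an Xbp1 probe set between genotypes missed the threshold. Since the deleted region is not described, these probe sets do not check the genotype. The log2 of the ratio of 3' to 5' Gapdh control signals, a sign of RNA integrity, averaged 2.73 ± 0.10, 2.80 ± 0.19 and 2.39 ± 0.21 (SD, n = 5) in KO at basal, 24 h and 48 h. In WT it averaged 2.86 ± 0.10, 2.83 ± 0.15 and 2.47 ± 0.09. Within both 48 h groups, replicates 1 and 2 stood apart from replicates 3 to 5 over all probe sets; the labels name no reason.

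The 250 bases upstream of the gene start (RefSeq, GRCm38.p6) are shown for Dusp6 and Spry2, the 2 members whose response to BDNF differed between the genotypes, and for Spred1, the only other member promoter with a match. Capitals mark CGGAA, the core letters of many ETS factor sites, on either strand (TTCCG on the strand shown). Dusp6 is at chr10:99262981-99263230 (plus strand), Spry2 at chr14:105896820-105897069 (minus strand) and Spred1 at chr2:117120821-117121070 (plus strand).
Dusp6: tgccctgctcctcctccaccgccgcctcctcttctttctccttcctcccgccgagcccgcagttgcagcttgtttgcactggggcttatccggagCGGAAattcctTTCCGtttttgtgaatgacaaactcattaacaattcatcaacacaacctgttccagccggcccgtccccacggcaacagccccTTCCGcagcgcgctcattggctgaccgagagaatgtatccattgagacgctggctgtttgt
Spry2: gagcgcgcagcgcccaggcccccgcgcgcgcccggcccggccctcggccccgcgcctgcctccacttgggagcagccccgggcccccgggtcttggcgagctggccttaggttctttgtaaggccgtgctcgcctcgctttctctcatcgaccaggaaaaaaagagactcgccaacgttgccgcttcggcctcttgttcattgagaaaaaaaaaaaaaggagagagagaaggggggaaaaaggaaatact
Spred1: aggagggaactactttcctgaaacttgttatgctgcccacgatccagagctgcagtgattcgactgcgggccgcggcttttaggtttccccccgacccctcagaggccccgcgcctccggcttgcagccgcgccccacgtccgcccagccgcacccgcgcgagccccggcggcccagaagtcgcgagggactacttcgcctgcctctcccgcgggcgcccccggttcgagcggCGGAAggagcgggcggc

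The Dusp6 window held 3 matches, beginning 155, 144 and 61 bases before the start. Spred1 held 1, at 17 bases before the start, and the promoters of Spry1, Spry2 and Etv5 (2 starts) held no match; 25.2% of 32851 mouse promoter windows of this length hold the core. This short core was searched after longer motifs had given no match. None of the 6 windows held CCGGAAG (in 6.91% of all windows), the cAMP response element TGACGTCA (1.55%) or its TGACG part (17.8%), the AP-1 letters TGANTCA (6.75%), the EGR letters GCGTGGG (4.3%) or a CArG box (1.47%), on either strand. These matches describe the letters in these windows and show no binding. The windows were rich in G and C, with 56.4% in Dusp6, 62.4% in Spry2 and 70.8% in Spred1, against a median of 52.4% over all windows.

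The first question was how BDNF changed these genes in each genotype. In KO dishes 5 of the 8 tested probe sets rose at 24 h, where 5.19% of all 13575 tested probe sets rose and 4.22% fell. In KO 6 rose at 48 h, where 17.5% rose and 8.35% fell. In WT dishes 7 rose at 24 h, where 7.60% of all rose and 4.86% fell. In WT 7 rose at 48 h, where 20.6% rose and 13.6% fell. None of the 8 fell in these 4 comparisons, in the limma fit or at an unadjusted p below 0.05. Etv5, counted in WT and in KO at 48 h, passed the signal filter through the WT BDNF dishes. BDNF dishes lay above all basal dishes, with no overlap, for 3 of the 8 in KO at 24 h (4.18% of all) and 5 in KO at 48 h (11.5%). The same held for 6 in WT at 24 h (6.03%) and 5 in WT at 48 h (11.1%). The comparisons with basal dishes share those dishes within a genotype, so their counts are not independent. The median log2 change of the 8 probe sets was 0.40 in KO and 0.61 in WT at 24 h, and 0.38 in KO and 0.50 in WT at 48 h, while the median over all tested probe sets lay between 0.01 and 0.04. The medians of the 8 and the WT counts without overlap also include Etv5, which passed the filter through its WT BDNF dishes. They are therefore given as a description. Each culture is a mixture, so fewer cells that make an mRNA and less of it per cell cannot be told apart.

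Dusp6, the ERK-specific phosphatase MKP-3, had the largest change of the 8 tested probe sets in each of the 4 comparisons with basal dishes. In KO dishes its level (1415834_at, log2 of signal over array median) was 0.25, 0.16, 0.53, 0.46 and 0.47 at basal, 1.22, 1.18, 1.13, 1.16 and 1.30 at 24 h, and 1.33, 1.45, 1.46, 1.26 and 1.62 at 48 h. In WT dishes it was 0.13, 0.14, 0.36, 0.32 and 0.32 at basal, 1.91, 1.63, 1.70, 1.69 and 1.80 at 24 h, and 1.87, 1.84, 1.93, 1.85 and 1.78 at 48 h. Every BDNF dish lay above every basal dish in both genotypes, and every WT BDNF dish lay above every KO BDNF dish, by a narrow margin between the highest KO dish (1.62, at 48 h) and the lowest WT dish (1.63, at 24 h). The rise at 24 h was 0.82 ± 0.08 (SE) log2 in KO, or 1.77-fold (limma, adjusted p = 8.09e-09), and 1.49 ± 0.08 in WT, or 2.81-fold (adjusted p = 4.42e-15). At 48 h the rise was 1.05 ± 0.08 in KO (adjusted p = 2.05e-11) and 1.60 ± 0.08 in WT (adjusted p = 5.73e-16). Ordered by the size of the 24 h change, Dusp6 was number 86 of 13575 in KO and number 14 in WT.

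Spry2, a Sprouty inhibitor of receptor tyrosine kinase signaling, followed with its brighter probe set 1436584_at. Its level in KO dishes was 1.55, 1.51, 1.58, 1.35 and 1.57 at basal, 2.04, 1.65, 1.88, 1.85 and 2.09 at 24 h, and 2.14, 2.25, 2.35, 2.21 and 2.34 at 48 h. In WT dishes it was 1.74, 1.73, 1.56, 1.68 and 1.64 at basal, 3.01, 2.58, 2.57, 2.76 and 2.58 at 24 h, and 2.98, 2.65, 2.95, 3.12 and 2.93 at 48 h. No KO dish at any time reached the lowest WT BDNF dish. Spry2 rose at 24 h by 0.39 ± 0.09 (SE) log2 in KO (limma, adjusted p = 0.00506) and by 1.03 ± 0.09 in WT (adjusted p = 4.04e-10). At 48 h it rose by 0.75 in KO (adjusted p = 2.55e-07) and by 1.26 in WT (adjusted p = 2.06e-12). The second Spry2 probe set, 1421656_at, was dim and flat, with group means between -1.69 and -1.44 log2, and did not show the change.

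**Figure D1:**
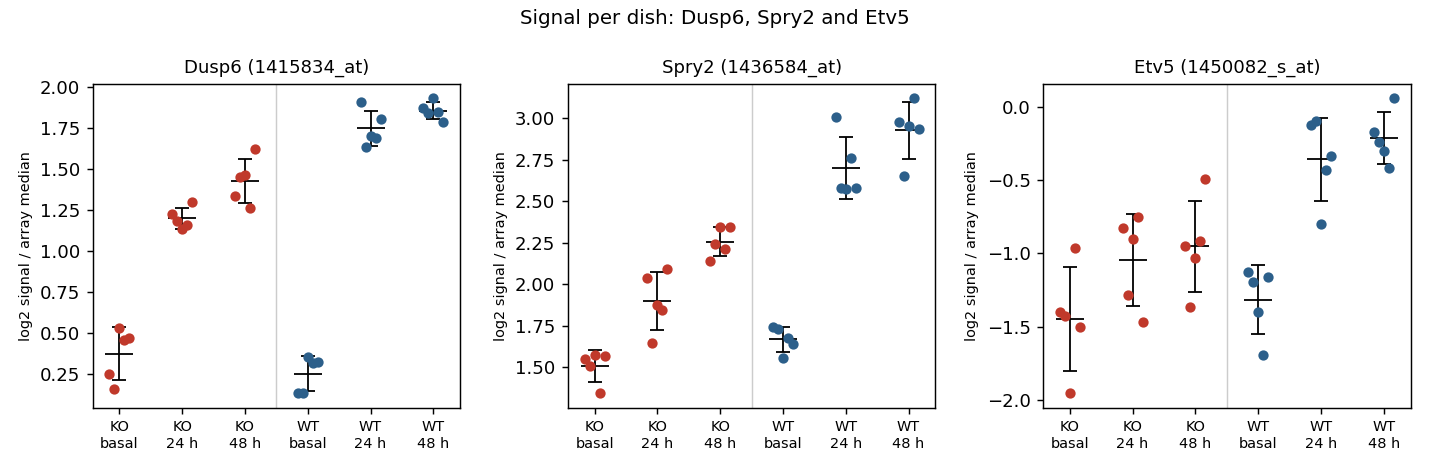
Level of Dusp6, Spry2 and Etv5 in each of the 30 dishes, as log2 of signal over the array median (vertical axis) in KO (red) and WT (blue) at basal, 24 h and 48 h of BDNF. Points are dishes, and bars give the mean and SD of 5; KO dishes with BDNF lie below WT dishes with BDNF for Dusp6 and Spry2, and the basal dishes of the genotypes overlap.

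Etv5, an ETS factor that ERK signaling induces, was near the limit of what was tested. Its probe set 1450082_s_at had a mean of -0.89 log2 over all arrays, just above the filter at -0.98, while its basal means of -1.45 in KO and -1.32 in WT lay below it, as did its KO mean of -1.05 at 24 h, so it passed the filter through its WT BDNF dishes, where it is high. Its calls describe these dishes and add no support to the counts of the set. In KO dishes its level was -1.40, -1.43, -1.95, -0.96 and -1.50 at basal, -0.82, -1.28, -0.90, -0.75 and -1.47 at 24 h, and -0.95, -1.37, -1.03, -0.92 and -0.49 at 48 h. In WT dishes it was -1.13, -1.20, -1.40, -1.70 and -1.16 at basal, -0.13, -0.09, -0.80, -0.43 and -0.33 at 24 h, and -0.17, -0.24, -0.30, -0.42 and 0.06 at 48 h. The KO groups overlap at all 3 times, and all WT BDNF dishes lie above all WT basal dishes. Its 24 h change was 0.40 ± 0.18 (SE) log2 in KO (limma, adjusted p = 0.178), and in WT it rose by 0.96 ± 0.18 (adjusted p = 0.000611). At 48 h Etv5 rose by 0.50 in KO (adjusted p = 0.0457, lost on leaving out any single dish of the 10 but KO basal 4 or KO 48 h 2, with values up to 0.154) and by 1.10 in WT (adjusted p = 3.25e-05). The dimmer Etv5 probe set 1420998_at had KO means of -1.34, -1.19 and -1.41 and WT means of -1.42, -0.74 and -0.99 at basal, 24 h and 48 h, and passed in no comparison when the filter was lifted.

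Phlda1, which growth factors induce early, rose in all 4 comparisons. Its level averaged 1.18 ± 0.16, 1.66 ± 0.15 and 1.58 ± 0.08 (SD, n = 5) in KO at basal, 24 h and 48 h, and 0.95 ± 0.12, 1.65 ± 0.07 and 1.56 ± 0.08 in WT. The 24 h rise was 0.49 in KO (limma, adjusted p = 0.000144) and 0.69 in WT (adjusted p = 2.66e-07), and the 48 h rise 0.40 in KO (adjusted p = 0.000476) and 0.61 in WT (adjusted p = 1.01e-06). The BDNF levels of the genotypes were close to each other, and the KO basal dishes, at 1.03 to 1.45, reached above the WT basal dishes, at 0.82 to 1.11.

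Spry1, another Sprouty inhibitor, changed less. Its level averaged 1.35 ± 0.12, 1.62 ± 0.22 and 1.70 ± 0.07 (SD, n = 5) in KO at basal, 24 h and 48 h, and 1.31 ± 0.08, 1.58 ± 0.15 and 1.58 ± 0.15 in WT. The 24 h change of Spry1 was 0.28 ± 0.09 (SE) in KO (limma, adjusted p = 0.0519), and in WT it rose by 0.27 ± 0.09 (adjusted p = 0.0460, or 0.0528 with the replicate number as a block). At 48 h it rose by 0.35 in KO (adjusted p = 0.00489) and by 0.27 in WT (adjusted p = 0.0216). The call in WT at 24 h was lost on leaving out any 1 of the 10 dishes but WT basal 3 or WT 24 h 2 (up to 0.145). That call was also lost as deposited (limma, adjusted p = 0.208) and with the 75th percentile as scale (0.0712). The same held without the filter (0.0602) and with only the arrays compared (0.0657). The call in WT at 48 h was lost without WT basal 1 or WT 48 h 2 (up to 0.0767). The WT 48 h call was also lost with quantile normalization (0.22, adjusted p = 0.0649), the 75th percentile as scale (0.20, adjusted p = 0.0876), replicates 1 and 2 alone (0.30, adjusted p = 0.148), replicates 3 to 5 alone (0.25, adjusted p = 0.0544) and the Gapdh ratio in the model (0.31, adjusted p = 0.0711).

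Spred1, the Sprouty-related inhibitor of Ras, was read by 3 probe sets that did not show the same pattern. The brightest, 1423160_at, averaged 3.61, 3.74 and 3.53 in KO at basal, 24 h and 48 h, and 3.41, 3.95 and 3.58 in WT. It rose in WT at 24 h by 0.54 ± 0.09 (SE) log2 (limma, adjusted p = 0.000105), while its change was 0.13 in KO at 24 h and 0.17 in WT at 48 h (adjusted p = 0.422 and 0.151), and in KO at 48 h it did not pass either. Probe set 1423161_s_at rose in all 4 comparisons, by 0.29 in KO and 0.38 in WT at 24 h (adjusted p = 0.0207 and 0.00149) and by 0.27 in KO and 0.33 in WT at 48 h (adjusted p = 0.0141 and 0.00207). The third, 1423162_s_at, rose in KO at 24 h by 0.40 (adjusted p = 0.0219) and in WT at 48 h by 0.39 (adjusted p = 0.00843). Its changes of 0.16 in WT at 24 h and 0.23 in KO at 48 h did not pass (adjusted p = 0.408 and 0.133). The KO calls of these last 2 probe sets were lost on leaving out KO basal 1, and some of them without KO basal 5 or KO 24 h 2 or 3 (up to 0.0839). Their KO calls at 24 h were also lost as deposited (limma, adjusted p = 0.152 and 0.0758) and with only the arrays compared (0.0797 and 0.0516). In WT the call of 1423161_s_at was lost at 24 h as deposited (0.0985) and at 48 h with replicates 1 and 2 alone (0.136). At 48 h, the call of 1423162_s_at in WT was lost with replicates 1 and 2 alone (0.12, adjusted p = 0.643), with a term for replicates 3 to 5 (0.22, adjusted p = 0.211) and with the Gapdh ratio in the model (0.36, adjusted p = 0.0930). That ratio also ended the call of 1423161_s_at in KO (0.14, adjusted p = 0.376, among 6 alternatives that ended it) and in WT (0.20, adjusted p = 0.175).

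Spry4 and Etv4 were close to or at the floor of 0.1 of the array median, which is -3.32 log2. Etv4 (1423232_at) and the Spry4 probe set 1422020_at were at the floor on 27 of 30 arrays each. The other Spry4 probe set, 1422021_at, was at the floor on 8 arrays, and in KO dishes its levels ranged from -3.32 to -2.64 at basal, -3.32 to -1.73 at 24 h and -3.32 to -2.19 at 48 h. In WT dishes it ranged from -3.32 to -2.85 at basal, -2.70 to -1.70 at 24 h and -2.50 to -2.03 at 48 h, so that no WT BDNF dish overlapped a WT basal dish and KO dishes did overlap. Since basal dishes of both genotypes are among those at the floor, no size of change is given for Spry4. With the filter lifted, 1422021_at passed in WT at 24 h and 48 h (limma, adjusted p = 0.0122 and 0.0204). It did not pass in KO (0.300 and 0.443), nor in the response difference between genotypes (0.914 and 0.938).

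**Figure D2:**
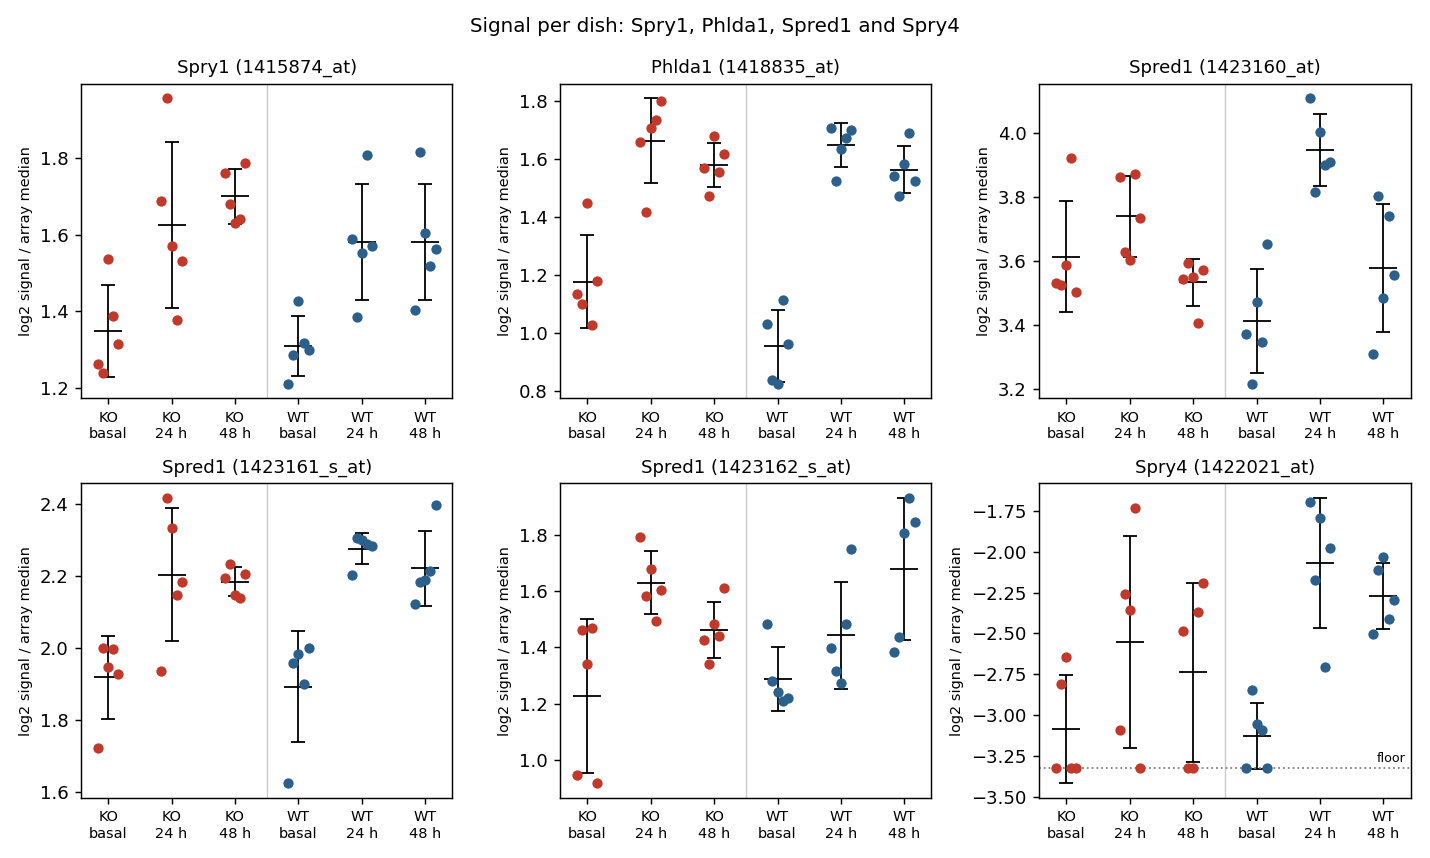
Level of Spry1, Phlda1, the 3 probe sets of Spred1 and a Spry4 probe set in each dish, as log2 of signal over the array median (vertical axis, a scale of its own in each panel), in KO (red) and WT (blue) by hours of BDNF. Points are dishes and bars give the mean and SD of 5; Phlda1 dishes with BDNF lie at about the same level in both genotypes, and the dotted line marks the floor at -3.32.

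From 24 h to 48 h of BDNF few of these probe sets passed the threshold. In KO 1 probe set of the 8 rose, where 6.03% of all rose and 2.08% fell. It was Spry2, by 0.36 ± 0.09 (SE) log2 (limma, adjusted p = 0.0138). In WT 1 fell, where 7.29% of all rose and 5.18% fell. It was Spred1 1423160_at, at -0.37 ± 0.09 (adjusted p = 0.00736). Dusp6 changed by 0.23 in KO (adjusted p = 0.0770) and by 0.11 in WT (adjusted p = 0.394), neither past the threshold, and Spry2 in WT by 0.23 (adjusted p = 0.0908). Both calls were lost with 48 h replicates 1 and 2 alone, with changes of 0.29 for Spry2 (adjusted p = 0.240) and -0.39 for Spred1 (adjusted p = 0.129). The Gapdh ratio in the model also ended both, with changes of 0.43 (adjusted p = 0.111) and -0.32 (adjusted p = 0.125). So did a term for 48 h replicates 3 to 5, at 0.27 (adjusted p = 0.184) and -0.36 (adjusted p = 0.0507). In values as deposited the Spred1 call was lost, at -0.054 (adjusted p = 0.674). There Dusp6 passed in KO and WT (limma, adjusted p = 0.0109 and 0.00256), as did Spry2 in WT (0.000505). The median change over all tested probe sets as deposited was 0.23 in KO and 0.34 in WT.

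The second question was how the genotypes compared at each time. At basal 1 of the 8 probe sets was higher in KO, where 8.55% of all were higher and 14.2% lower. It was Phlda1, by 0.22 ± 0.08 (SE) log2 (limma, adjusted p = 0.0448). At basal Dusp6 differed by 0.12 (adjusted p = 0.300), Spry2 by -0.16 (adjusted p = 0.212) and Etv5 by -0.13 (adjusted p = 0.656), and the basal groups of all 8 probe sets overlapped, while 6.30% of all probe sets were higher in KO and 9.49% lower with no overlap. With BDNF for 24 h 3 were lower in KO, where 7.61% of all were higher and 14.0% lower. Without Etv5, which passed the filter through its WT BDNF dishes, 2 remained at either time. At 24 h Spry2 was at -0.80 ± 0.09 (adjusted p = 2.29e-08), Etv5 at -0.69 ± 0.18 (adjusted p = 0.00661) and Dusp6 at -0.55 ± 0.08 (adjusted p = 4.08e-06). At 48 h the same 3 were lower, where 8.16% of all were higher and 11.2% lower, with Etv5 at -0.74 (adjusted p = 0.00375), Spry2 at -0.67 (adjusted p = 6.05e-07) and Dusp6 at -0.43 (adjusted p = 0.000152). Groups did not overlap for Dusp6 and Spry2 at 24 h (9.47% of all probe sets were lower in KO without overlap), nor for these and Etv5 at 48 h (7.51%). The basal call of Phlda1 was lost without KO basal 1, 3 or 5 or WT basal 2, 3 or 5, with an adjusted p of up to 0.178. Etv5 lost its 24 h call in values as deposited (-0.53, adjusted p = 0.115) and its 48 h call with replicates 3 to 5 alone (-0.59, adjusted p = 0.116).

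The third question, and the one that tests whether the genotypes answered BDNF differently, was the KO response minus the WT response. At 24 h 9 of 13575 probe sets passed, and 2 of them were of this set, both with a smaller rise in KO (0.0516% of all were lower and 0.0147% higher). Dusp6 was second of all by p-value, at -0.67 ± 0.11 (SE) log2 (95% interval -0.90 to -0.44, limma, adjusted p = 0.0120), so its fold rise in KO was 0.63 of that in WT. Spry2 was number 7, at -0.64 ± 0.13 (-0.90 to -0.38, adjusted p = 0.0320). At 48 h 26 passed, 1 of them of this set (0.103% of all were lower and 0.0884% higher): Dusp6 at -0.55 ± 0.11 (-0.78 to -0.32, adjusted p = 0.0291). Spry2 at 48 h was at -0.51 ± 0.13 (-0.77 to -0.25, adjusted p = 0.125). The 24 h and 48 h differences share the basal dishes. Without division by the array median the difference was -0.60 for Dusp6 and -0.58 for Spry2 at 24 h and -0.61 for Dusp6 at 48 h, and none passed (adjusted p = 0.459, 0.612 and 0.346). With a spread estimated from the compared groups alone the adjusted p-values were 0.0697, 0.0726 and 0.0972 in limma. The Dusp6 call at 24 h held whichever dish was left out (highest adjusted p 0.0466). The Spry2 call was lost on leaving out any of 12 of 20 dishes (up to 0.0794) and the Dusp6 call at 48 h any of 10 (up to 0.0813).

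**Figure D3:**
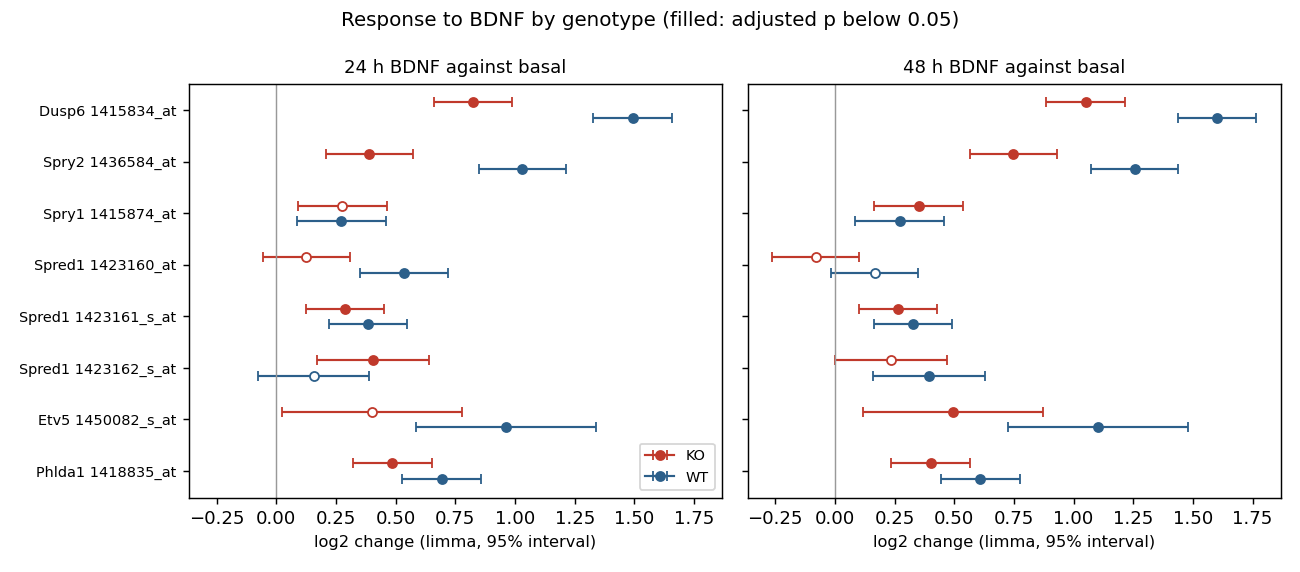
Log2 change with BDNF against basal for the 8 tested probe sets at 24 h (left) and 48 h (right), in KO (red) and WT (blue), with 95% intervals from limma; filled points have an adjusted p below 0.05. The intervals of KO and WT stand apart for Dusp6 and Spry2 at both times, as do those of Spred1 1423160_at at 24 h, and overlap for Spry1, Etv5 and Phlda1 at both times.

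The remaining members did not pass in the response difference. Etv5 was at -0.56 ± 0.26 (SE) log2 at 24 h (95% interval -1.09 to -0.02, limma, adjusted p = 0.777) and at -0.61 at 48 h (-1.14 to -0.07, adjusted p = 0.685). These estimates come from a probe set that passed the filter through its WT BDNF dishes, where it is high. Phlda1 was at -0.21 at either time (24 h adjusted p = 0.879, 48 h adjusted p = 0.804). For Spry1 the 24 h interval was -0.26 to 0.27, so a difference of the size seen in Dusp6 lies outside it. The Spred1 probe sets differed in sign at 24 h, with 1423160_at at -0.41 (adjusted p = 0.395) and 1423162_s_at at 0.25 (adjusted p = 0.913).

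**Figure D4:**
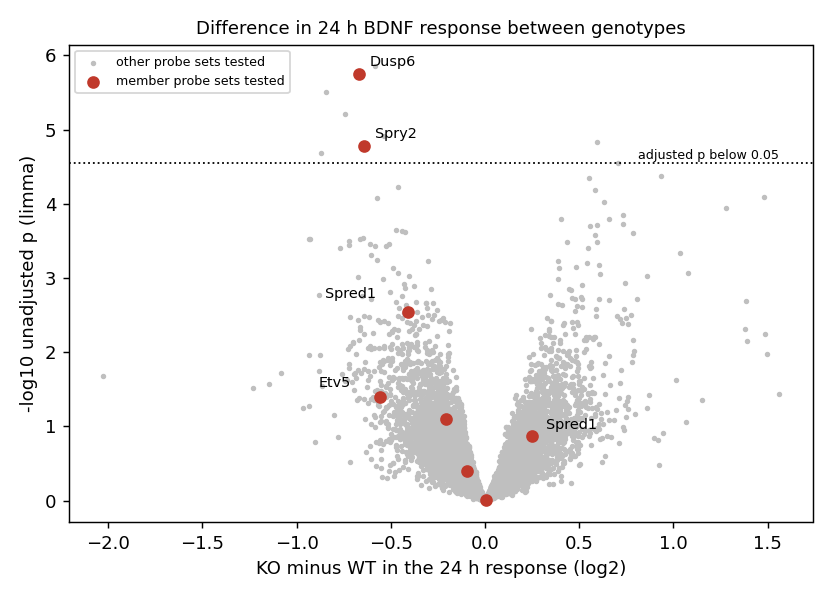
Difference between genotypes in the 24 h BDNF response for all 13575 tested probe sets: KO minus WT in log2 (horizontal axis) against -log10 of the unadjusted limma p (vertical axis). Red points are the 8 probe sets of the set, the dotted line marks the lowest point with an adjusted p below 0.05, and Dusp6 (-0.67) and Spry2 (-0.64) lie above it on the left.

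Levels of these genes varied together over the dishes, as a description with no test, since the dishes share treatment and pool. Over all 30 dishes the Pearson correlation was 0.91 between Dusp6 and Spry2, 0.84 between Dusp6 and Phlda1, 0.84 between Spry2 and Etv5 and 0.79 between Dusp6 and Etv5. Spry1 had 0.66 with Dusp6 and 0.42 with Spry2. The brightest Spred1 probe set, 1423160_at, had 0.45 with Dusp6, and its correlation with the other Spred1 probe sets was 0.41 and 0.23. Among all tested probe sets of other genes with 1 symbol, those most like Dusp6 were Krt12 (0.957), Ercc1 (0.956) and Eno2 (0.954), and those most like Spry2 were Eps8 (0.937), Nrip3 (0.937) and Sec11c (0.932). Icam5 (0.854), Pde1a (0.843) and Ercc1 (0.843) were most like Etv5.

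The rest of the pathway was read through 4 lists written with earlier results of these data known. The cascade from TrkB to the nucleus, 45 tested probe sets of 27 genes, is given beside the array as a whole. In KO 3 rose and 3 fell at 24 h, where 5.19% of all tested probe sets rose and 4.22% fell. In KO 9 rose and 0 fell at 48 h, where 17.5% rose and 8.35% fell. In WT 5 rose and 2 fell at 24 h, where 7.60% of all rose and 4.86% fell. In WT 12 rose and 2 fell at 48 h, where 20.6% rose and 13.6% fell. The adaptor Grb2 (1449111_a_at) rose at 24 h by 0.33 in KO (limma, adjusted p = 0.00158) and by 0.48 in WT (adjusted p = 7.02e-06), and the docking protein Gab1 (1417694_at) changed by -0.37 in KO and -0.44 in WT (adjusted p = 0.0354 and 0.00966). The median 24 h change of the list was 0.01 in KO and 0.05 in WT. Between genotypes 1 cascade probe set was higher and 6 lower in KO at basal (8.55% of all were higher and 14.2% lower), 1 and 7 at 24 h (7.61% and 14.0%), and 2 and 6 at 48 h (8.16% and 11.2%). Nras, a Ras protein, was at -0.41 at basal (adjusted p = 0.000337) and the Ras inhibitor Rasa1 (1426476_at) at -0.34 at 24 h (adjusted p = 0.00926).

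Other MAP kinase phosphatases, which inactivate ERK or its relatives p38 and JNK, gave 9 tested probe sets. Of these 2 rose at 24 h and 4 at 48 h in each genotype, where 5.19% of all rose in KO and 7.60% in WT at 24 h, and 17.5% in KO and 20.6% in WT at 48 h. Dusp3 (1425608_at), a small dual-specificity phosphatase, rose at 24 h by 0.62 in KO (limma, adjusted p = 0.0111) and by 0.53 in WT (adjusted p = 0.0250). Dusp14 rose at 48 h by 0.60 in KO and 0.39 in WT (adjusted p = 0.00124 and 0.0255), and lay lower in KO than in WT at all 3 times, at -0.70, -0.48 and -0.48 (adjusted p = 0.000178, 0.00898 and 0.00861). Dusp1, the nuclear phosphatase MKP-1, also lay lower in KO at all 3 times, at -0.24, -0.29 and -0.24 (adjusted p = 0.0211, 0.00546 and 0.0231).

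Other feedback and target genes of ERK gave 14 tested probe sets. In KO 4 rose and 2 fell at 24 h and 5 rose and 1 fell at 48 h, and in WT 4 rose at 24 h and 6 rose and 2 fell at 48 h, beside the shares of all probe sets given for the cascade (rises of 5.19% and 17.5% in KO, 7.60% and 20.6% in WT). Spred2, the close relative of Spred1, rose at 24 h by 0.38 in KO (limma, adjusted p = 0.000549) and by 0.35 in WT (adjusted p = 0.000983). It was lower in KO at 24 h, at -0.46 (adjusted p = 5.59e-06). As its rises were of about the same size in both genotypes, Spred2 was lower in KO by about as much at basal. The small Maf factor Maff rose at 24 h by 0.58 in KO and 0.69 in WT (adjusted p = 0.0136 and 0.00249), and the kinase Plk3 by 0.45 and 0.61 (adjusted p = 0.000560 in KO and 5.32e-06 in WT). Cyclin D1 (Ccnd1, 1417419_at), a cell cycle gene that ERK induces, was higher in KO by 1.02 at basal (adjusted p = 1.13e-07), 0.88 at 24 h (1.75e-06) and 1.10 at 48 h (2.11e-08). Between genotypes 5 of the 14 were higher and 2 lower in KO at basal (8.55% of all higher, 14.2% lower), 4 and 2 at 24 h (7.61% and 14.0%), and 5 and 3 at 48 h (8.16% and 11.2%), with Ccnd1 giving 3 of the higher probe sets at each time.

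The immediate-early genes, switched on without new protein synthesis and many of them coding for transcription factors, rose through a few members. Of 15 tested probe sets 6 rose and 1 fell at 24 h in KO, against 5 that rose in WT; at 48 h 5 rose and 1 fell in KO, against 5 that rose in WT. Of all tested probe sets 5.19% rose in KO and 7.60% in WT at 24 h, and 17.5% in KO and 20.6% in WT at 48 h. Egr2 (1427682_a_at) rose at 24 h by 2.52 ± 0.26 (SE) log2 in KO (limma, adjusted p = 2.84e-08) and by 2.69 ± 0.26 in WT (adjusted p = 4.93e-09). Egr1 rose by 1.14 in KO and 1.35 in WT (adjusted p = 2.73e-11 and 3.01e-13), and Fos by 1.12 in KO and 1.18 in WT (adjusted p = 9.33e-12 and 1.43e-12). Between genotypes 4 were lower in KO at basal, 7 were lower and 1 higher at 24 h, and 7 were lower at 48 h (of all, 14.2%, 14.0% and 11.2% were lower), among them Nr4a1 at -0.44, -0.52 and -0.51 (adjusted p = 0.00137, 0.000222 and 0.000243). In the response difference 0 of the 83 probe sets of the 4 lists passed in limma, at 24 h (12 at an unadjusted p below 0.05, 3 higher and 9 lower) or at 48 h (8, of which 4 higher and 4 lower).

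Markers of cell types were counted in the same dishes. Of all tested probe sets 8.55% were higher and 14.2% lower in KO at basal, 7.61% and 14.0% at 24 h, and 8.16% and 11.2% at 48 h. Vascular and meningeal markers were higher in KO in 11 of 13 tested probe sets and lower in 2 at basal, 11 and 1 at 24 h, and 12 and 1 at 48 h. Their summed signal per dish, in units of the array median, was 221 to 265, 193 to 220 and 198 to 223 in KO. In WT it was 107 to 129, 102 to 112 and 90.1 to 108, each at basal, 24 h and 48 h. Astrocyte markers were tested in 8 probe sets of the 4 genes Gja1, Aldh1l1, Aldoc and Sparcl1, several of them of Gja1. Of these 8, 4 were higher in KO and 2 lower at basal, 4 and 1 at 24 h, and 4 and 2 at 48 h. The sums of all 18 astrocyte probe sets were 131 to 152, 106 to 124 and 112 to 130 in KO, and 85.1 to 105, 75.6 to 99.3 and 65.3 to 102 in WT. Neuron markers were lower in KO in 2 of 16 at basal, 4 at 24 h and 6 at 48 h. Their sums were 221 to 244, 238 to 269 and 260 to 296 in KO, and 235 to 268, 251 to 281 and 253 to 316 in WT. Progenitor markers were higher in KO in 4 of 22 and lower in 9 at basal, 4 and 9 at 24 h, and 5 and 6 at 48 h, and their sums overlapped between genotypes. No listed probe set of these 4 lists was at the floor in every dish.

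With BDNF, 5.19% of all tested probe sets rose and 4.22% fell in KO at 24 h, and 17.5% and 8.35% in KO at 48 h. In WT 7.60% and 4.86% did so at 24 h, and 20.6% and 13.6% at 48 h. Of 16 neuron marker probe sets, 3 rose and 1 fell in KO at 24 h, and 4 rose and 1 fell in KO at 48 h. In WT 4 rose at 24 h, and 7 rose and 2 fell at 48 h. Progenitor markers fell in 7 of 22 at 24 h and 6 at 48 h in KO, and in 7 and 12 in WT. Their sums were 253 to 276, 220 to 243 and 238 to 260 in KO, and 240 to 297, 220 to 265 and 232 to 267 in WT, at basal, 24 h and 48 h. In the response difference 1 marker probe set passed, the endothelial receptor Kdr at 48 h, with a larger response in KO by 1.06 (limma, adjusted p = 0.0467). The part of these markers in the results for Dusp6, Spry2 and the other genes was not tested.

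**Figure D5:**
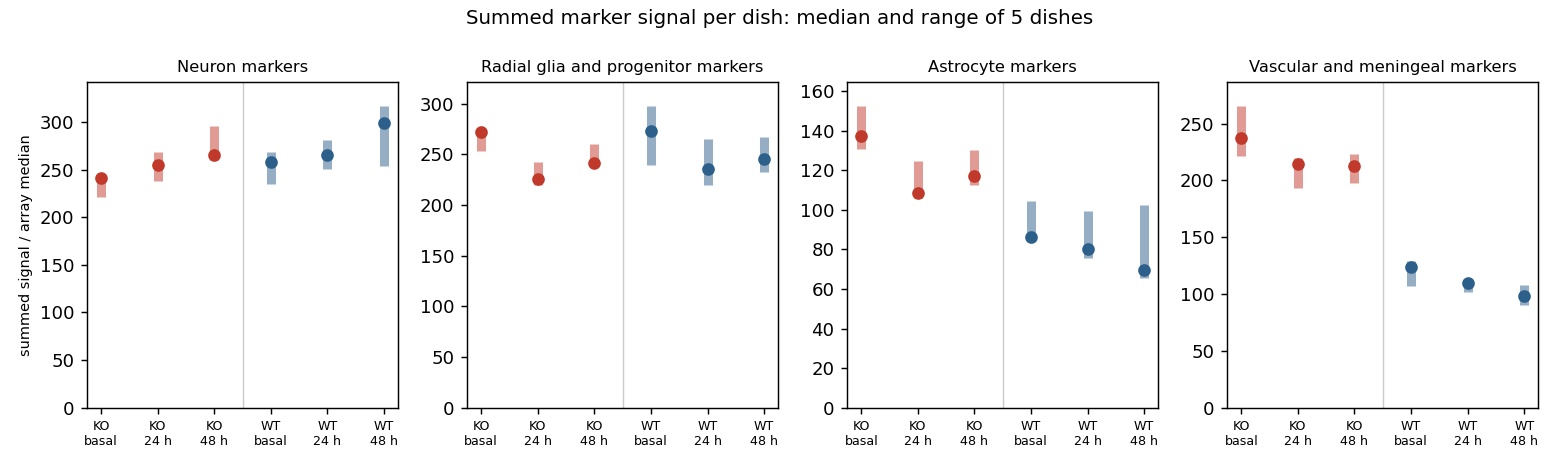
Summed signal of the marker genes of 4 cell types per dish, in units of the array median (vertical axis from 0), in KO (red) and WT (blue) by hours of BDNF. Points are medians and bars the range of 5 dishes; vascular and meningeal sums of 193 to 265 in KO lie above the 90.1 to 129 of WT, and neuron sums overlap.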

How the data were processed

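Each of 30 Affymetrix Mouse Genome 430A 2.0 arrays measured the RNA of 1 dish. The deposited values are intensity signals that the authors computed with MAS5, per the submitters' processing notes, on a linear scale; the version is not given in the sources used here. A division by the array median and a filter on present calls, per the series design text, are not visible in the deposited values, since array medians differ and all 22690 probe sets are listed. Each signal was therefore divided by its array median, floored at 0.1 and converted to log2. Probe sets were named from the platform annotation: 20393 carry 1 symbol, 691 several and 1606 none.

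The upper 60% of probe sets by mean log2 signal, without 64 controls, left 13575, each kept apart. In limma 3.58.1 (R 4.3.3), 6 group means were estimated from the 30 arrays together, with empirical Bayes and an intensity trend, and 11 comparisons were adjusted over all tested probe sets by the Benjamini-Hochberg method, two-sided, with a threshold of 0.05. "Rose", "fell", "higher" and "lower" in counts mean past it. The procedure was tested on simulated data.

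The members and the gene lists were chosen with earlier results of these data known. All probe sets of the members are given; each list gives its counts and called examples, and likeness gives the 3 probe sets with the highest correlation. Besides the 4 pathway lists and the 4 marker lists of the report, markers of proliferating, oligodendrocyte lineage, microglial and erythroid cells were counted. Alternatives changed the scaling, floor, filter, samples, weights, covariates and replicates. Replicate numbers were not used as pairs, since the labels state no pairing and fewer than all same-numbered dishes deviated together. Promoter sequences are RefSeq's, build GRCm38.p6, for 5 of the genes; the arrays carry no coordinates.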

Additional observations from a re-analysis of the deposited data

Results flagged for a closer look

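In 6 of 48 groups of 5 dishes, counted over the 8 tested probe sets, 1 dish lay far from the other 4, where chance gives about 1 in 20; all 6 were of Spred1. Probe set 1423160_at was at 3.92 log2 in KO basal replicate 4, with the others at 3.50 to 3.59, and at 3.41 in KO 48 h replicate 4, with the others at 3.54 to 3.59. Probe set 1423161_s_at was low in replicate 1 of 3 groups: 1.72 in KO basal (others 1.93 to 2.00), 1.62 in WT basal (others 1.90 to 2.00) and 2.20 in WT 24 h (others 2.28 to 2.31). Probe set 1423162_s_at was at 1.49 in WT basal replicate 1, with the others at 1.21 to 1.28.

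The response to BDNF differed between genotypes by a test of the difference itself for Dusp6 at 24 h (KO minus WT -0.67 log2) and 48 h (-0.55), and for Spry2 at 24 h (-0.64), in limma. None of these calls held without division by the array median or with a spread estimated from the compared groups alone. Genotype and pool cannot be told apart in this test.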

How the results depend on the processing

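Over 67 results and 942 values from alternatives that kept every dish compared or split the 48 h dishes, 869 kept direction and side of the threshold, 54 lost the call, 16 gained one and 3 turned sign, all 3 small changes of Spred1 1423162_s_at: KO 48 h against 24 h was 0.014 as deposited, and with 48 h replicates 1 and 2 alone WT 48 h against 24 h was -0.035 and the 48 h response difference 0.035. Leaving out 1 dish kept 731 of 790, lost 52 and gained 7. The cause of these changes was not tested. Uncalled changes under 0.1 log2 in the main fit were left out beforehand, so turns of sign among them are not counted.

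Counts of called probe sets of the 8 moved as follows. For KO 24 h against basal (5) the count was 3 as deposited and 3 with only the arrays compared. For KO 48 h (6) it was 3 with replicates 1 and 2 alone. For WT 48 h (7) it was 4 with the brightest probe set per gene (5 tested, so the fall comes from fewer probe sets), 4 with replicates 1 and 2 alone and 4 with the Gapdh ratio as covariate. For KO 48 h against 24 h (1) it was 2 with quantile normalization, 2 as deposited and 2 with array weights, and 0 with replicates 1 and 2 alone, a term for replicates 3 to 5 or the Gapdh ratio. For WT 48 h against 24 h (1) it was 4 as deposited, 2 with array weights, 3 with replicates 3 to 5 alone and 0 with replicates 1 and 2 alone, that term or the Gapdh ratio. For KO against WT at basal (1) it was 2 with quantiles equalized, 2 with the 75th percentile as scale, 0 as deposited and 0 with only the arrays compared. For the 24 h response difference (2) it was 0 as deposited, 1 without the filter and 0 with only the arrays compared; for the 48 h difference (1) it was 0 as deposited, 0 with only the arrays compared, 2 with array weights and 0 with replicates 1 and 2 or 3 to 5 alone.

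On leaving out each dish in turn the counts ranged from 3 to 6 for KO 24 h, 4 to 6 for KO 48 h, 6 to 7 for WT 24 h, 6 to 8 for WT 48 h, 1 to 2 for WT 48 h against 24 h, 0 to 1 for KO against WT at basal, 1 to 2 for the 24 h difference and 0 to 2 for the 48 h difference. The Spry2 call of the 24 h difference was lost without KO basal dish 1, 2, 3 or 5, KO 24 h dish 2, 3 or 4, WT basal dish 2, 3 or 5, or WT 24 h dish 1 or 4 (adjusted p 0.0515 to 0.0794); the Dusp6 call of the 48 h difference was lost without KO basal dish 3 or 4, KO 48 h dish 1, 2 or 4, WT basal dish 1, 2 or 5, or WT 48 h dish 3 or 4 (0.0501 to 0.0813). Without WT 48 h dish 2, Spry2 gained the 48 h difference (0.0410).

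With the replicate number as a replicate block the counts were 5, 6, 6 and 7 for KO 24 h, KO 48 h, WT 24 h and WT 48 h; the block ended the Spry1 call in WT at 24 h and changed no other call of the set. Of 75 pairs of same-numbered dishes 25 correlated over 0.1 (r from -0.14 to 0.27), and 15 of 30 arrays correlated best with their own number, a hint from the data and not from the design.

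As deposited, the median change over tested probe sets was 0.29 in KO 48 h and 0.34 in WT 48 h against basal, and 0.23 and 0.34 against 24 h. Scaling also moved the share of calls that were higher: against basal it was 67.6% in KO 48 h and 60.2% in WT 48 h, 50.9% and 48.9% with quantile normalization, 42.1% and 43.5% with the 75th percentile, and 98.5% and 97.9% as deposited; for KO against WT at 24 h it was 35.2%, 52.9%, 51.2% and 84.1%, and at basal 37.6%, 50.7%, 51.7% and 75.6%. All calls of the 24 h difference numbered 9, with 21 after quantile normalization, 16 with the 75th percentile, 30 with array weights, 1 with only the arrays compared and 0 as deposited, and 2 to 15 without a dish. Those of the 48 h difference numbered 26, and at most 50 over the alternatives that left out no single dish. They numbered 12 without the filter, 10 with the brightest probe set, 5 as deposited, 1 with replicates 1 and 2 alone and 8 to 31 without a dish. Against basal, calls numbered 370 as deposited and 2340 with array weights in KO 24 h (1278), 409 as deposited in WT 24 h (1692), 6224 as deposited and 1441 with the Gapdh ratio in KO 48 h (3504), and 7704 and 2281 in WT 48 h (4636). Spry4, Etv4 and the dim probe sets of Spry2 and Etv5 lie where signal over background limits any statement.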

Other observations

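Beside Dusp6 and Spry2, 7 other probe sets passed in the 24 h response difference in limma. Igf1, a growth factor, was at -0.58 ± 0.10 (SE) log2, KO minus WT (adjusted p = 0.0120), and Igfbp4, a binding protein of such factors, at -0.87 ± 0.17 (adjusted p = 0.0354). The response of the chromatin reader Zmynd11 was lower in KO by -0.84 (adjusted p = 0.0142), of the matrix protease Adamts5 by -0.74 (adjusted p = 0.0207) and of the synaptic scaffold Homer2 by -0.54 (adjusted p = 0.0320). The responses of Zcchc18 and Heatr6 were higher in KO, by 0.60 and 0.70 (adjusted p = 0.0320 and 0.0422). At 48 h the same probe sets of Igf1 (-0.54, adjusted p = 0.00986) and Zmynd11 (-0.72, adjusted p = 0.0283) passed again, as did Igfbp4 with 3 probe sets (-0.75 to -1.30), with the basal dishes shared between the comparisons.

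Of the other marker lists, erythroid markers fell with BDNF at 48 h in 5 of 6 tested probe sets in KO and 6 of 6 in WT, where 8.35% of all tested probe sets fell in KO and 13.6% in WT. They were higher in KO than in WT in 3 at 24 h and 1 at 48 h. Proliferating cell markers fell in 6 of 11 in WT at 48 h, and in 1 at each time in KO, where 4.22% of all fell at 24 h and 8.35% at 48 h. Microglia markers were higher in KO in 2, 3 and 4 of 11 at basal, 24 h and 48 h, and lower in 1 at 24 h and 1 at 48 h. Of 5 oligodendrocyte lineage markers 1 was lower in KO at basal. Of all tested probe sets 8.55%, 7.61% and 8.16% were higher in KO at basal, 24 h and 48 h, and 14.2%, 14.0% and 11.2% lower. A Top2a probe set and an Nr4a3 probe set of the immediate-early list were at the floor in every dish.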
